A study of Arabidopsis thaliana with 12 samples.

Results

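The organelle small heat shock proteins measured here are HSP22 of the endoplasmic reticulum (locus AT4G10250), HSP23.5 of the mitochondrion (AT5G51440), HSP26.5, listed only as an organelle protein (AT1G52560), and HSP15.7 of the peroxisome (AT5G37670). They were chosen by name and compartment, as 4 probe sets of the 18465 in the deposited table. Each of the 4 was paired with exactly 1 gene by the array annotation, and the reference table for assembly TAIR10.1 held all of these loci. RNA came from whole seedlings of Arabidopsis thaliana, the thale cress, that were 7 days old and had grown at 22 °C on half-strength medium with sucrose. The lines sampled were the mutant QK and the wild-type accessions Ws and Col-0, each after 1 h at 37 °C (heat) and without that hour (control), with 2 biological replicates per group and 12 Affymetrix arrays in all. The labels say only that QK is a mutant. From the literature it is known as a line without the class A1 heat shock factors, built from insertion alleles of both accessions, so that neither wild type shares its whole background. The design asks how much of the heat response needs what QK lacks.

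Small heat shock proteins are ATP-independent chaperones with an alpha-crystallin domain. They bind proteins that begin to unfold and hold them in a soluble form until ATP-driven chaperones refold them. Plants are known for small heat shock proteins in nearly every compartment, encoded by nuclear genes and sent to the endoplasmic reticulum, mitochondrion, plastid or peroxisome by targeting signals. Their genes are nearly silent in unstressed vegetative tissue. In heat they are switched on by heat shock factors, of which the class A1 factors act first.

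The median signal of an array was 75.6 to 87.3 and the largest single signal 18418. With 2 arrays per group, their number limits the precision. Both arrays labelled Col-0 replicate 2 went against their treatment labels. Of 41 other probe sets that heat raised 4-fold or more in each replicate pair of QK and of Ws, all 41 were brighter in that pair's control-labelled array than in its heat-labelled one, and all 5 lowered probe sets were dimmer there. In the arrays labelled replicate 1 all 41 and all 5 ran the other way. The labels were kept. QK and Ws were therefore compared in a model of their own 8 arrays, and every test that involves Col-0 is given with 12 arrays as labelled and with the 10 arrays left without that pair. As a check of the tissue, PYK10, a glucosidase of roots and hypocotyls, gave 1405.8 to 6853.9 and HPR, a peroxisomal enzyme of photorespiration, 3745.9 to 6740.7 over the 12 arrays. Of 7 seed storage and oil body genes 1 was measured, PAP85, with 77.8 and 124.0 in heated and 23.9 and 93.1 in control QK, against 9.3 to 12.6 in all Ws and Col-0 arrays. The 3 root genes measured of 5 summed to 4551.7 and 5033.4 in heated QK, against 1793.3 and 1463.7 in heated Ws. The arrays labelled Col-0 heat gave 3697.2 (replicate 1) and 6075.5 (replicate 2). Of these genes JAL33 gave 33.0 to 44.6 in Ws and 1026.3 to 1503.3 in Col-0. In control QK it gave 45.2 and 1759.8, so the sum does not measure root content alone. AT5G54370 gave 28.5 and 24.9 in heated QK and 20.3 and 18.8 in heated Ws. At control it gave 287.5 and 385.3 in QK and 105.5 and 228.1 in Ws. PYK10 gave 3644.3 and 3329.9 in heated QK, against 1740.0 and 1405.8 in heated Ws (log2 difference 1.15, limma adjusted p = 0.025). In control arrays PYK10 gave 6070.2 and 6853.9 in QK and 4907.8 and 3710.6 in Ws. None of 7 green tissue genes had a probe set of its own. The part of these marker differences in the values of QK below was not tested. In whole seedlings, fewer cells that express a gene and less RNA per cell cannot be told apart.

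In heated Ws all 4 RNAs were among the brightest on the array, and in control Ws all were dim. HSP22 gave a signal of 3931.7 and 3564.3 in the heated Ws arrays, against 18.5 and 16.4 in the control Ws arrays. HSP23.5 gave 5916.5 and 5819.8 with heat, against 46.5 and 52.2 at control. The heated and control arrays of Ws were far apart for both genes, and the replicates of each group lay close together. HSP26.5 gave 6882.0 and 7023.9 in heated Ws, against 10.1 and 23.6 in control Ws. HSP15.7 gave 5444.6 and 4726.3 with heat, against 16.8 and 17.0 at control. In the heated Ws arrays each of the 4 probe sets ranked between 51 and 178 from the top of 18465, while in the control arrays of Ws and QK their signals of 7.6 to 52.2 did not pass the 38.0th percentile.

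Heat raised each of them in Ws, by log2 7.76 for HSP26.5 (SE 0.64, limma adjusted p = 0.00145), 7.27 for HSP15.7 (SE 0.65, limma adjusted p = 0.00193), 6.81 for HSP22 (SE 0.99, limma adjusted p = 0.0118) and 6.49 for HSP23.5 (SE 0.79, limma adjusted p = 0.0065). Differences are of log2(signal + 16), so each of these rises would be larger with a smaller addend and smaller with a larger one. Under the alternative settings the rise in Ws was 6.44 to 8.72 for HSP26.5 and 5.99 to 8.15 for HSP15.7. It was 5.55 to 7.67 for HSP22 and 5.71 to 6.87 for HSP23.5. Calls required a 2-fold change or more with a limma adjusted p under 0.05, and the same model called 3.46% of the 13631 probe sets tested as raised in Ws. By size of the rise these 4 stood 7th, 14th, 18th and 19th. HSP22, HSP26.5 and HSP15.7 lay above the 35th percentile of their array, the limit for testing, in 5 of 12 arrays. Passing the limit thus already required a difference between arrays. In QK heat replicate 2, 1 of the 5, they lay only at the 83.99th, 54.75th and 62.9th percentile. HSP23.5 lay above the limit in 8 of 12. With all 18465 probe sets tested the limma adjusted p-values in Ws were 0.00146, 0.00204, 0.0134 and 0.00704 in the order above.

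The errors of these rises were set in part by QK, since 1 spread per gene is estimated over the 8 arrays. With the 4 Ws arrays alone, a choice made after the values were seen, the standard errors were 0.27 for HSP26.5, 0.18 for HSP15.7, 0.18 for HSP22 and 0.17 for HSP23.5, and limma called all 4 (adjusted p = 0.00172 to 0.00282) among 2.34% of the probe sets tested. With all 12 arrays the rises were the same but the limma adjusted p-values were 0.379 to 0.381 and none of the 4 was called, among 0.0587% of the probe sets tested, because the arrays labelled Col-0 replicate 2 then enter the spread. HSP22 missed the threshold when any 1 Ws array was left out (limma adjusted p = 0.0638 to 0.0836), and HSP23.5 without Ws heat replicate 1 (limma adjusted p = 0.0542).

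**Figure D1:**
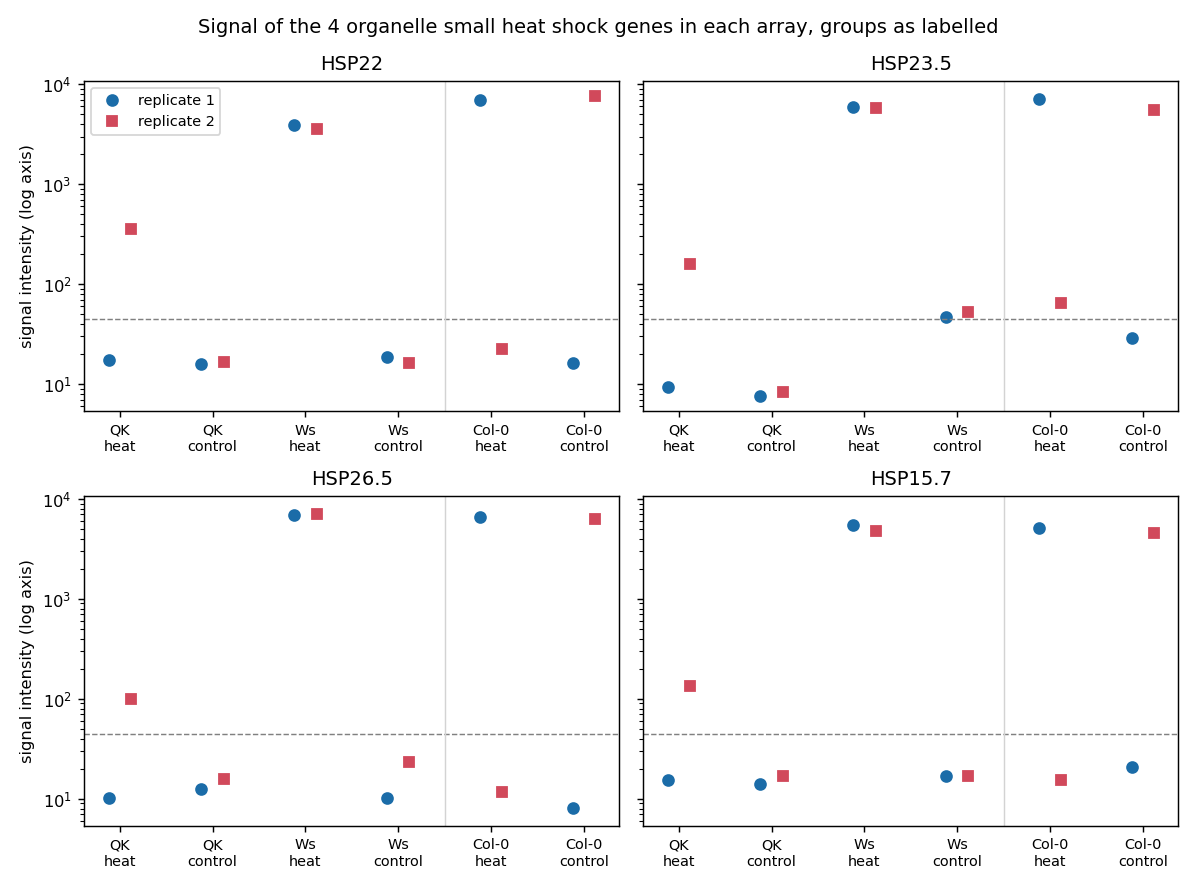
Signal intensity on a log axis of HSP22, HSP23.5, HSP26.5 and HSP15.7 in each of the 12 arrays, with groups as labelled, circles for replicate 1 and squares for replicate 2. The dashed line is the median over arrays of their 35th percentile. Both heated Ws arrays lie at 3564.3 or above, heated QK replicate 1 lies with the control arrays, and the pair labelled Col-0 replicate 2 stands opposite to replicate 1.

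In QK the heated replicates differed from each other. HSP22 gave 17.5 in heated QK replicate 1 and 358.4 in heated QK replicate 2, against 15.8 and 16.7 in the control QK arrays. HSP23.5 gave 9.4 and 157.7 with heat, against 7.6 and 8.4 at control. For both genes the first heated array lay at the control level and the second above it. HSP26.5 gave 10.2 and 99.6 in heated QK, against a mean of 14.1 ± 2.26 (SD, n = 2) in control QK. HSP15.7 gave 15.3 and 134.5 with heat, against 14.2 and 17.0 at control. The heated and control QK signals overlapped for HSP26.5 and HSP15.7, and for HSP22 and HSP23.5 the lower heated signal was within about 1 unit of the higher control signal. All 4 genes were higher in heated than in control QK in the replicate 2 pair, by log2 3.52 (HSP22), 2.83 (HSP23.5), 2.19 (HSP15.7) and 1.87 (HSP26.5). In the replicate 1 pair the log2 differences were 0.08, 0.11, 0.05 and -0.12 in the same order.

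Over both QK replicates none of the 4 was called. The fitted log2 difference between heated and control QK was 1.80 for HSP22 (SE 0.99, limma adjusted p = 0.392), 1.47 for HSP23.5 (SE 0.79, limma adjusted p = 0.383), 1.12 for HSP15.7 (SE 0.65, limma adjusted p = 0.419) and 0.87 for HSP26.5 (SE 0.64, limma adjusted p = 0.528). The model called 1.17% of the probe sets tested as raised in QK. The 95% confidence interval of the HSP22 difference reached 4.18, so that a rise of the size seen in the second pair lies within it. Without QK heat replicate 2 the 4 differences were -0.20 to 0.08, and without QK heat replicate 1 they were 1.94 to 3.54. Each of these fits has 1 heated QK array, assumed to vary like the other groups, and its error does not hold the gap between the heated QK replicates.

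The gap between the heated QK arrays, replicate 2 minus replicate 1, was log2 3.48 for HSP22, 2.77 for HSP23.5, 2.27 for HSP15.7 and 2.14 for HSP26.5. Of the 13631 probe sets tested, 19, 47, 78 and 93 had a gap at least as large, these genes included. The middle 95% of all gaps in heated QK lay between -1.04 and 1.23. In heated Ws the 4 gaps were -0.14, -0.02, -0.20 and 0.03, and in control QK 0.04, 0.05, 0.13 and 0.15. The 4 genes stood outside the bulk of probe sets in the heated QK pair and inside it in heated Ws and control QK. Of 471 probe sets called as raised by heat in Ws, 10.8% had a gap of at least log2 1 in heated QK, against 3.86% of all probe sets tested, and the 4 genes belong to those 471. In control QK the shares were 3.18% and 4.23%, in heated Ws 0.637% and 3.21%, and in control Ws 3.4% and 3.98%. The 471 were called in these same arrays, with a spread per probe set that includes these gaps. The shares are therefore not an independent comparison.

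**Figure D2:**
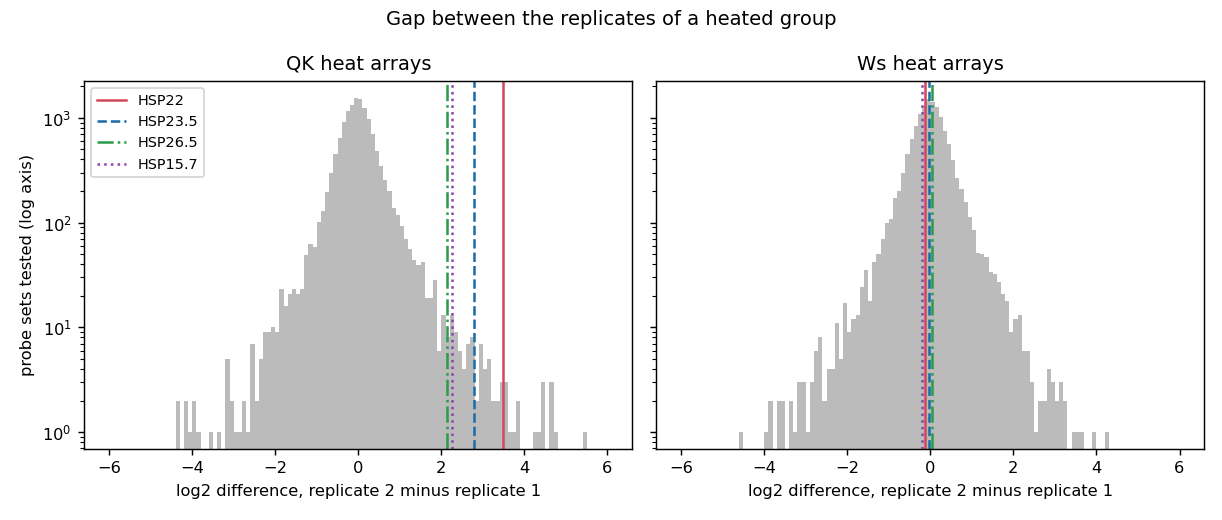
Number of probe sets tested, on a log axis, by the log2 difference between replicate 2 and replicate 1 of the heated QK arrays (left) and of the heated Ws arrays (right), with a line for each of the 4 genes. The lines lie at 2.14 to 3.48 in heated QK and at -0.20 to 0.03 in heated Ws.

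Set directly against heated Ws, heated QK had less of all 4 RNAs. The log2 difference, QK minus Ws, was -6.98 for HSP26.5 (SE 0.64, limma adjusted p = 0.00221), -6.47 for HSP23.5 (SE 0.79, limma adjusted p = 0.00693), -6.21 for HSP15.7 (SE 0.65, limma adjusted p = 0.0038) and -5.07 for HSP22 (SE 0.99, limma adjusted p = 0.0389). The highest QK signal of any of these genes, 358.4 for HSP22, was below the lowest heated Ws signal of that gene, 3564.3. The groups did not overlap for any of the 4. The share of all probe sets tested without such overlap was not counted. With so few arrays per group, non-overlap alone therefore does not set these genes apart. Limma called 2.7% of the probe sets tested as lower in QK. HSP26.5 had the largest negative difference of all 13631, HSP23.5 stood 6th from the bottom, HSP15.7 10th and HSP22 40th. HSP22 and HSP23.5 missed the threshold when either heated Ws array was left out (limma adjusted p = 0.179 and adjusted p = 0.193 for HSP22, adjusted p = 0.0551 and adjusted p = 0.0562 for HSP23.5), and HSP22 also without any 1 control array (limma adjusted p = 0.0704 to 0.0751) and with an addend of 1 (limma adjusted p = 0.0583). With all 12 arrays none of the 4 was called (limma adjusted p = 0.306 to 0.555), among 0.403% of the probe sets tested.

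The difference in heat response, QK minus Ws, was tested as an interaction. It was -6.89 for HSP26.5 (SE 0.90, limma adjusted p = 0.0243) and -6.15 for HSP15.7 (SE 0.92, limma adjusted p = 0.037), both past the threshold. For HSP23.5 it was -5.02 (SE 1.12, limma adjusted p = 0.155) and for HSP22 -5.02 (SE 1.396, limma adjusted p = 0.303), and neither passed. The 95% confidence intervals were -7.72 to -2.33 for HSP23.5 and -8.39 to -1.65 for HSP22. Limma called 1.25% of the probe sets tested as responding less in QK, and HSP26.5 had the largest negative difference of them all. Both calls were lost with an addend of 1 in place of 16 (limma adjusted p = 0.0789 for HSP26.5 and 0.0893 for HSP15.7) and with all 12 arrays (limma adjusted p = 1 for each), where 0% of the probe sets tested were called. Without any 1 of the 6 arrays other than heated QK no member was called. The 4 differences were log2 -5.82 to -3.28 without QK heat replicate 1 and -7.96 to -6.41 without QK heat replicate 2. Leaving 1 of these 2 out keeps 1 heated QK array. The error then comes from the other groups and no longer holds the gap between the heated QK replicates.

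**Figure D3:**
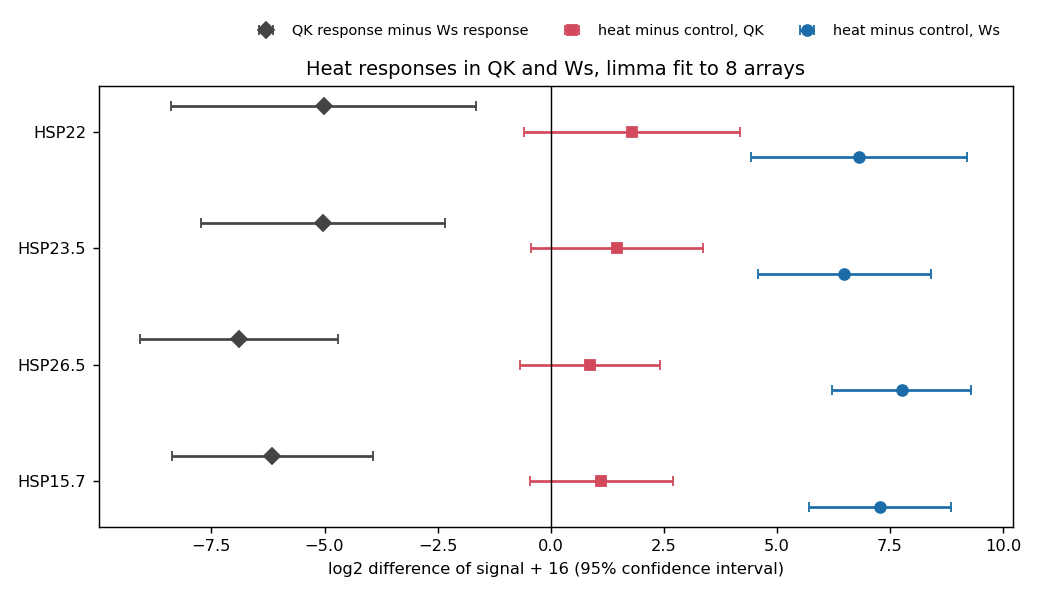
Log2 difference of signal + 16 with its 95% confidence interval for the 4 genes, from the limma model of 8 arrays. Diamonds are the QK response minus the Ws response, squares heat minus control in QK, and circles heat minus control in Ws. The Ws rises lie at 6.49 to 7.76, the QK differences at 0.87 to 1.80 with intervals that include 0, and the differences in response at -6.89 to -5.02.

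As a share of the mean of both heated Ws arrays, the signal in heated QK replicate 1 was 0.467% for HSP22, 0.301% for HSP15.7, 0.160% for HSP23.5 and 0.147% for HSP26.5. In heated QK replicate 2 it was 9.56% for HSP22, 2.69% for HSP23.5, 2.64% for HSP15.7 and 1.43% for HSP26.5. In replicate 2 HSP22 had the highest share of the 4. Against Col-0 heat replicate 1 the shares in QK heat replicate 2 were 5.14% for HSP22, 2.61% for HSP15.7, 2.21% for HSP23.5 and 1.52% for HSP26.5. The array labelled Col-0 heat replicate 2 gave less than QK heat replicate 2 for all 4 genes. The shares in QK heat replicate 1, where the signals lay at the control level, have no order. Shares near 0 are limited by the unspecific signal of each probe set, which the table does not separate from RNA. Among 10 other heat shock genes whose mean signal in heated Ws was at least 4 times that in control Ws, taken from the lists of small heat shock proteins and cytosolic chaperones below, the share was 0.167% to 6.41% in heated QK replicate 1 and 2.03% to 13.6% in replicate 2.

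**Figure D4:**
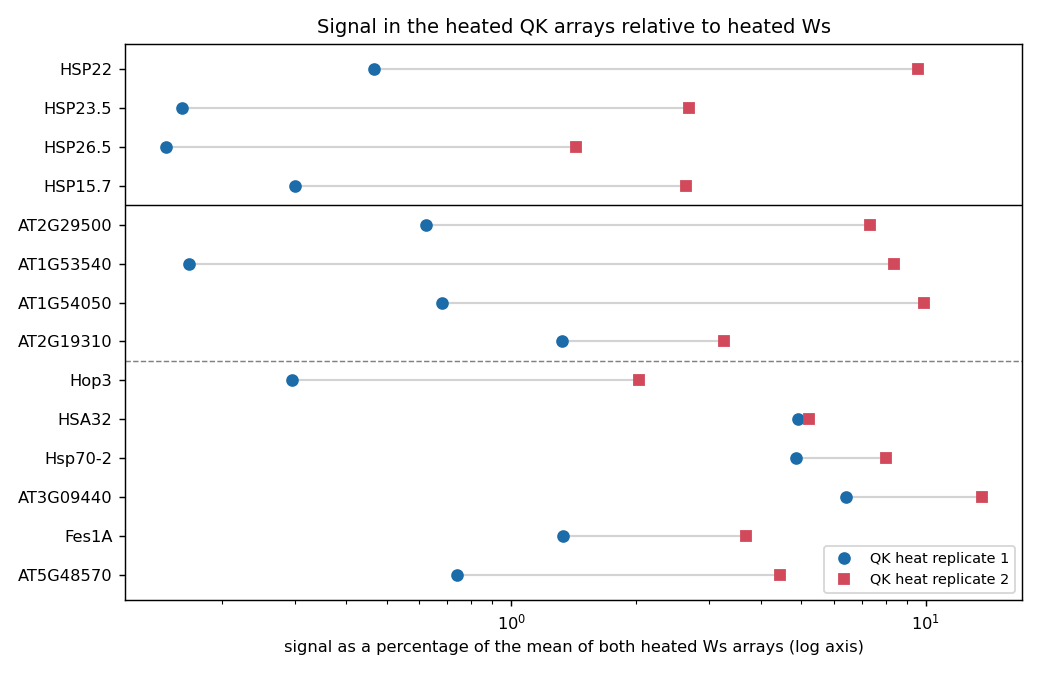
Signal in heated QK as a percentage of the mean of both heated Ws arrays, on a log axis, with circles for QK heat replicate 1 and squares for QK heat replicate 2. The 4 organelle genes stand above the solid line, 4 other small heat shock genes below it and 6 cytosolic chaperone genes under the dashed line. HSP22 reached 9.56% and HSP26.5 1.43% in replicate 2.

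At control the 4 genes had low signals in QK and in Ws alike, and HSP23.5 differed most between them. HSP23.5 gave 7.6 and 8.4 in control QK, against 46.5 and 52.2 in control Ws and 28.6 in Col-0 control replicate 1. The array labelled Col-0 control replicate 2 gave 5540.2. The control QK and control Ws arrays did not overlap for HSP23.5, but the share of all probe sets tested without such overlap was not counted. The log2 difference, QK minus Ws, was -1.44 (SE 0.79, limma adjusted p = 0.878), which did not pass. At such low signals its size depends on the addend, with -2.48 for an addend of 1 and -0.65 for 64, and neither passed (limma adjusted p = 0.773 and adjusted p = 0.952). At an addend of 16, 32 of 13631 probe sets had a more negative one. Limma called 0.022% of the probe sets tested as lower and 0.161% as higher in control QK. In a model of the 4 control arrays alone, chosen after the values were seen, the standard error was 0.14 and HSP23.5 did not pass either (limma adjusted p = 0.193, unadjusted p = 0.000272). For HSP26.5, HSP15.7 and HSP22 the differences at control were -0.10, -0.06 and -0.05, with 95% confidence intervals of -1.64 to 1.44, -1.63 to 1.52 and -2.44 to 2.33. A lower control value in QK was not particular to HSP23.5. Of the 3 profiles nearest to it, named below, Hop3 differed by -0.94, AT2G20560 by -1.16 and HSP15.7 by -0.06, and none was called.

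In the Col-0 arrays labelled replicate 1, all 4 genes were bright with heat and dim at control. HSP22 gave 6968.5 in the array labelled heat and 16.1 in the array labelled control, HSP23.5 gave 7118.1 and 28.6, HSP26.5 gave 6546.9 and 8.1, and HSP15.7 gave 5156.4 and 20.7. In the pair labelled replicate 2 the order was the opposite for 4 of 4. HSP22 gave 22.7 in the array labelled heat and 7620.5 in the array labelled control, HSP23.5 gave 64.2 and 5540.2, HSP26.5 gave 11.8 and 6264.4, and HSP15.7 gave 15.4 and 4550.6. With the labels as they stand the groups overlap for every gene, and the fitted log2 responses of Col-0 were 0.60 for HSP23.5, 0.13 for HSP26.5, 0.07 for HSP22 and -0.02 for HSP15.7 (limma adjusted p = 1 for each). That model called 0% of the probe sets tested as raised in Col-0, and 8 had an unadjusted p under 0.05. Without both arrays labelled Col-0 replicate 2, each arm of Col-0 is 1 array, assumed to vary like the other groups. The responses were then log2 8.09 for HSP26.5 (SE 0.90, limma adjusted p = 0.0107), 7.77 for HSP22 (SE 1.396, limma adjusted p = 0.0538), 7.32 for HSP23.5 (SE 1.12, limma adjusted p = 0.0331) and 7.14 for HSP15.7 (SE 0.92, limma adjusted p = 0.0183), and 1.59% of the probe sets tested were called as raised.

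Heated QK had less of the 4 RNAs than Col-0 heat replicate 1 and, in replicate 2, more than the heat-labelled array of that replicate. With 12 arrays the log2 difference between heated QK and heated Col-0 was -3.51 for HSP23.5, -2.96 for HSP26.5, -2.55 for HSP15.7 and -2.22 for HSP22 (limma adjusted p = 0.657 to 0.842), and 0.301% of the probe sets tested were called as lower in QK. With 10 arrays it was -6.90 for HSP26.5 (limma adjusted p = 0.00767), -6.75 for HSP23.5 (limma adjusted p = 0.0191), -6.24 for HSP15.7 (limma adjusted p = 0.0128) and -5.96 for HSP22 (limma adjusted p = 0.0621), with 1.96% called. The difference in heat response between QK and Col-0 was 0.74 to 1.73 with 12 arrays (limma adjusted p = 1 for each) and -7.22 to -5.85 with 10 (limma adjusted p = 0.08 to 0.491). None of the 4 was called in either. The 12-array model called 0% of the probe sets tested as responding less in QK than in Col-0 (532 with an unadjusted p under 0.05 in either direction) and the 10-array model 0.462%.

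Between the wild types HSP22 had the lowest ratio of the 4. Its mean signal in heated Ws was 53.8% of that in Col-0 heat replicate 1 and 49.2% of that in the bright control-labelled array of replicate 2, where the other 3 genes had 82.4% to 106% and 106% to 112%. Both heated Ws signals of HSP22 lay below both of these Col-0 signals, of which the second is labelled control. The share of all probe sets tested with such an order was not counted. With the labels as deposited, the other heated Col-0 array gave 22.7, far below Ws. The test did not separate the accessions. The log2 difference between heated Ws and heated Col-0 was 2.85 with 12 arrays (SE 2.79, limma adjusted p = 0.92) and -0.89 with 10 (SE 1.21, limma adjusted p = 0.994), where 0.117% and 0.249% of the probe sets tested were called as lower in Ws. With the 4 Ws arrays and both arrays labelled Col-0 replicate 1, chosen after the values were seen, it was -0.89 with a 95% confidence interval of -1.49 to -0.30, and limma called no probe set (adjusted p = 0.758 for HSP22). By size the last of these HSP22 differences stood 361st from the bottom of the 13631 probe sets tested. For HSP26.5, HSP15.7 and HSP23.5 the 12-array differences were 4.03, 3.66 and 2.96, and the 10-array ones 0.09, -0.02 and -0.28.

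The 4 genes had like profiles over the 12 arrays. Likeness was measured as the mean absolute difference between 2 profiles of log2(signal + 16), each centred on its own mean, which uses no treatment label. Between members it was smallest for HSP26.5 and HSP15.7 (0.32) and largest for HSP22 and HSP23.5 (0.63). Among the 7294 tested probe sets with exactly 1 gene, the closest to HSP15.7 were HSP26.5, AT2G29500 (0.33), a small heat shock protein, and AT1G71000 (0.34), and the closest to HSP26.5 were HSP15.7, HSP22 (0.45) and AT2G29500 (0.46). The closest to HSP22 were AT2G29500 (0.35), HSP15.7 (0.36) and AT1G54050 (0.41), another small heat shock protein. HSP23.5 lay closest to Hop3 (0.40), a co-chaperone that links HSP70 and HSP90, then to HSP15.7 (0.42) and AT2G20560 (0.45). AT2G29500, the gene nearest to HSP22, gave 56.7 and 666.6 in heated QK and 34.2 and 32.8 in control QK, and 9653.7 and 8548.0 in heated Ws and 33.5 and 28.9 in control Ws. Like the organelle genes, it was low in heated QK replicate 1 and higher in replicate 2. Of the 8 protein-coding genes next to the 4 loci in the reference order, 2 had a probe set of their own. AT1G52550, beside HSP26.5, gave 14.3 to 58.3 over the 12 arrays and AT5G37680, beside HSP15.7, 109.1 to 275.6, with log2 differences in heated Ws of 0.20 and 0.36 (limma adjusted p = 0.827 and adjusted p = 0.675).

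The other genes of the pathway were taken from lists by compartment, and many of their members have no probe set assigned to them alone. Of 15 other small heat shock proteins 6 were tested, and limma called 4 of them as raised in Ws (3.46% of all probe sets tested), 0 in QK (1.17% of all) and 1 with a lower response in QK than in Ws (1.25% of all). Their median log2 difference was 6.10 in Ws, against -0.05 over all probe sets tested, and 1.43 in QK, against 0.00 over all. The difference in response was -5.79 for AT1G53540 (SE 1.91, limma adjusted p = 0.475), -5.42 for AT2G29500 (SE 1.30, limma adjusted p = 0.2) and -4.89 for AT1G54050 (SE 1.42, limma adjusted p = 0.339). The member called was AT2G19310 (log2 -4.59, limma adjusted p = 0.0136), named after its value was seen, with 68.1 and 166.7 in heated QK and 5258.8 and 4993.5 in heated Ws. AT4G21870 and AT5G54660, the 2 members not called in Ws, gave 455.0 and 394.2 and, for the second gene, 69.5 and 84.3 in heated Ws, against 368.1 and 378.6 and, for the second gene, 81.2 and 64.8 in control Ws. Beside the 0 called in QK, limma gave 2607 of all probe sets tested an unadjusted p under 0.05 there.

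Of 10 cytosolic chaperones 6 were tested. All 6 were called as raised in Ws (3.46% of all probe sets tested) and as lower in heated QK than in heated Ws (2.7% of all). Of the 6, 0 were called as raised in QK (1.17% of all) and 4 with a lower response in QK (1.25% of all). The median log2 difference in response was -3.99, against 0.04 over all probe sets tested. It was -5.23 for Hop3 (SE 0.81, limma adjusted p = 0.0405), -4.65 for Fes1A, which works with HSP70 (SE 0.68, limma adjusted p = 0.0344), and -4.24 for AT5G48570 (SE 1.196, limma adjusted p = 0.314). At control the median log2 difference of the 6, QK minus Ws, was -0.96, against 0 over all probe sets tested. None of the 6 was called there. For the 6 other small heat shock proteins that median was -0.04.

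Other proteins of the same compartments were mostly without a probe set of their own. Of 12 other chaperones of the endoplasmic reticulum, the compartment of HSP22, 3 were tested, and limma called 2 of them as raised in QK (1.17% of all probe sets tested) and 0 in Ws (3.46% of all). CRT1b, a calreticulin that folds glycoproteins, gave 4476.0 and 6978.3 in heated QK and 520.0 and 1270.2 in control QK, and 893.7 and 1202.6 in heated Ws and 622.4 and 1014.8 in control Ws. Its log2 rise in QK was 2.76 (SE 0.48, limma adjusted p = 0.0403). ATERDJ3B, a J-domain partner of the chaperone BiP, rose in QK by log2 2.10 (SE 0.27, limma adjusted p = 0.0188), and AT5G07340 differed by 1.25 (SE 0.40, limma adjusted p = 0.167). The difference in response between QK and Ws was not called for any of the 3 (limma adjusted p = 0.322 for CRT1b, 0.303 for ATERDJ3B and 1 for AT5G07340). Of all probe sets tested 0.0954% were called as responding more in QK. The median of the 3 was 1.399, against 0.04 over all. Set directly against heated Ws, heated QK had 2 of the 3 called as higher (1.96% of all). These were CRT1b (log2 2.41, limma adjusted p = 0.0408) and ATERDJ3B (log2 1.41, limma adjusted p = 0.0389). The single mitochondrial member tested of 11, NCLPP7, a subunit of the Clp protease, gave 172.1 to 234.4 over the 8 arrays of QK and Ws, and differed between heated and control Ws by -0.21 (limma adjusted p = 0.673). The single peroxisomal member tested of 11, HPR, differed by -0.22 in Ws (limma adjusted p = 0.648). No probe set was tested for the 7 plastid chaperones and the 8 heat shock factors on the lists.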

How the data were processed

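The authors deposited 1 linear signal intensity for each probe set on each array. The software GCOS 1.4 is named per the submitters' processing notes. The summary algorithm, scaling target and detection calls are not given in the sources used here, and array medians were close enough that no further normalization was applied.

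Groups follow the sample titles, and p-values rest on the spread between biological replicates, pooled for each probe set over the groups of a model. A group with 1 array, as each Col-0 group in the 10-array model, adds nothing to that spread. Of 18465 probe sets, 10396 had exactly 1 gene, 398 several and 7671 none in the annotation used. Tests used log2(signal + 16) of the 13631 probe sets whose signal exceeded the array's 35th percentile on at least 2 of 12 arrays. limma 3.58.1 (R 4.3.3) was fitted with 1 mean per group and trended empirical Bayes variances, two-sided, with Benjamini-Hochberg adjustment over all probe sets tested. The models of 8, 10 and 12 arrays had 4, 4 and 6 residual degrees of freedom. The code was tested on simulated data.

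The members and gene lists were chosen with earlier results of these data known. Named genes are the members, the 3 nearest profiles of each, and up to 3 genes per list with the largest difference in response between QK and Ws. No sequences were used here, so the planned promoter motifs were not analysed. Of 7 green tissue genes 0, of 5 root genes 3 and of 7 seed genes 1 had a single-gene probe set. Alternatives covered the replicate number, normalization, addend, filter, variance trend, fold threshold, arrays in the model and each array left out.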

Additional observations from a re-analysis of the deposited data

Results flagged for a closer look

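By a test of the difference itself, the heat response of 2 of the 4 genes was called as different between QK and Ws. The same test called 1.25% of the probe sets tested as responding less in QK. The log2 difference in response, QK minus Ws, was -6.89 for HSP26.5 (limma adjusted p = 0.0243) and -6.15 for HSP15.7 (limma adjusted p = 0.037). Both calls were lost with an addend of 1 (limma adjusted p = 0.0789 and adjusted p = 0.0893), with all 12 arrays (limma adjusted p = 1 for each) and without any 1 of the 6 arrays other than heated QK (limma adjusted p = 0.0776 to 0.171). HSP26.5 differed between heat and control by log2 -0.12 and 1.87 in the QK pairs and by 8.05 and 7.47 in the Ws pairs. For HSP15.7 the differences were 0.05 and 2.19 in the QK pairs and 7.38 and 7.17 in the Ws pairs, so that the rise was smaller in QK in both pairs for both genes. HSP23.5 and HSP22 were not called (limma adjusted p = 0.155 and adjusted p = 0.303). Their differences in response were -5.02 each, with 95% confidence intervals of -7.72 to -2.33 and -8.39 to -1.65.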

How the results depend on the processing

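The number of the 4 genes called by limma moved with these settings. In the heat response of Ws it was 0 with all 12 arrays and 2 to 4 with 1 array left out. In QK it was 0 to 3 with 1 array left out. For the difference in response between QK and Ws it was 0 with an addend of 1 (HSP26.5 at limma adjusted p = 0.0789), 0 with all 12 arrays, 3 with an addend of 64 and 0 to 4 with 1 array left out. For heated QK against heated Ws it was 0 with all 12 arrays, 3 with an addend of 1 and 2 to 4 with 1 array left out. For the heat response of Col-0 it was 3 with 10 arrays (1.59% of all probe sets tested) and 4 with the replicate block added (2.88%). For the difference in response between QK and Col-0 it was 2 with 10 arrays and the replicate block (1.17% of all, against 0.462% without the block). For heated QK against heated Col-0 it was 3 with 10 arrays (1.96% of all) and 4 with the block (3.15%). The block thus came with more calls over all probe sets. Leaving 1 array out keeps 1 array in its group, so that the spread comes from the other groups. Ranges of calls over all probe sets for QK and Ws are given below. The cause of these moves was not tested, beyond the smaller or larger set of arrays itself.

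Replicate numbers are shared by the groups, but the labels do not say that a number marks a batch. Deviations of same-numbered arrays correlated at 0.587 to 0.807 in all 6 pairs of QK and Ws groups and at 0.352 to 0.565 in the 8 pairs of a Col-0 group with a QK or Ws group, so that 14 of 15 pairs were above 0.1, and at -0.173 between the Col-0 groups. With the replicate block and 8 arrays, the limma adjusted p of the difference in response was 0.00437 for HSP26.5, 0.0125 for HSP15.7, 0.0523 for HSP23.5 and 0.123 for HSP22, and probe sets called as responding less in QK numbered 290 (2.13%), against 170 (1.25%) without the block. The block changed no call of a member in the 8-array contrasts. With 10 arrays it added the calls of HSP26.5 (limma adjusted p = 0.0145) and HSP15.7 (limma adjusted p = 0.0491) for the difference in response between QK and Col-0, and of HSP22 for the Col-0 response (limma adjusted p = 0.0171) and for heated QK against heated Col-0 (limma adjusted p = 0.021).

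Over all probe sets tested, counts moved by more than 1.5 times. Probe sets raised in Ws numbered 471, 8 to 550 under the alternatives and 273 to 451 with 1 array left out. Those raised in QK numbered 160, against 34 to 272 and 56 to 137. Those with a lower response in QK than in Ws numbered 170, against 0 to 290 and 66 to 110. Those lower in heated QK than in heated Ws numbered 368, against 55 to 484 and 222 to 353. At control 22 were higher and 3 lower in QK, against 0 to 77 and 0 to 29 under the alternatives and 0 to 75 and 0 to 4 with 1 array left out.

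Signs turned in the following cases. The Col-0 response of HSP15.7 was 0.009 after centring on the 75th percentile, 0.042 with an addend of 64 and 7.14 with 10 arrays, with or without the block, and that of HSP22 was -0.007 with an addend of 64. The difference in response between QK and Col-0 with 10 arrays, with or without the block, was -5.97 for HSP22, -5.85 for HSP23.5, -7.22 for HSP26.5 and -6.02 for HSP15.7. Heated Ws against heated Col-0 was -0.89, -0.28 and -0.024 for HSP22, HSP23.5 and HSP15.7 with 10 or 6 arrays, and -1.30, -0.64, -0.28 and -0.30 for HSP22, HSP23.5, HSP26.5 and HSP15.7 with 10 arrays and the block.

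With 1 array left out, the response of QK ranged over -0.20 to 1.94 for HSP26.5 and -0.012 to 2.25 for HSP15.7, and control QK against control Ws over -0.40 to 0.20 and -0.124 to 0.004 in that order. In the models of 12 arrays as labelled, the Col-0 response ranged over -3.88 to 4.02 for HSP22, -2.88 to 4.08 for HSP23.5, -3.88 to 4.15 for HSP26.5 and -3.71 to 3.66 for HSP15.7. The difference in response between QK and Col-0 ranged over -2.22 to 5.67, -2.61 to 4.35, -3.27 to 4.75 and -2.54 to 4.83 in that order. Heated QK against heated Col-0 ranged over -5.96 to 1.53 for HSP22, -6.90 to 0.98 for HSP26.5 and -6.24 to 1.13 for HSP15.7, and heated Ws against heated Col-0 over -0.89 to 6.60 for HSP22, -0.28 to 6.20 for HSP23.5 and -0.024 to 7.34 for HSP15.7. Signals near those of control arrays cannot be told from unspecific signal.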
